A study of Drosophila melanogaster with 2 samples.

Results

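The X chromosome genes are 2671 of the 17698 genes listed for 1 mRNA library from adult fruitflies (Drosophila melanogaster). They were chosen by position alone, as genes whose listed position begins with X. They were compared with 11144 autosomal genes, 3496 on chromosome arm 2L, 3457 on 3L and 4191 on 3R. Genes of 2R, the fourth chromosome, the Y chromosome and the mitochondrial genome were not part of the comparison. The study itself asked, in zebrafish and fruitflies, how the enzymes Drosha and Dicer cleave different microRNA intermediates and how this relates to microRNA expression. The library was prepared from total RNA of adults. No treatment, strain, sex, age or number of flies is given for it in the sources used here, and the paper describes RNA from individual adults for the small RNA library only. The level of a gene is its TPM (transcript abundance corrected for transcript length and scaled to a fixed sum over the library), summed over its transcripts.

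In the fruitfly, females carry a pair of X chromosomes and males carry an X and a Y. The dosage compensation complex, which contains the noncoding RNAs roX1 and roX2, raises transcription from the single X of males towards the output of an autosomal pair. The X chromosome is also known to hold few genes that work only in the testis or the male accessory gland, and many genes of the female germline. RNA of adult flies mixes tissues, so fewer cells of a type and less RNA per cell cannot be told apart here.

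The library held 26179479 reads, of which the X and the 3 autosomal arms together had 19804571. A gene at 1 TPM had a median of 15.5 reads over the 340 genes between 0.9 and 1.1 TPM. For a gene without reads, up to 3 reads, or 0.115 RPM (reads scaled to library size), are still allowed, and this limit covers counting error only. There is no replicate, and genes are not replicates of each other. Values are therefore set side by side without a test, and the X is read against the range of the 3 autosomal arms. Genes limited to females and genes limited to males both had reads, among them Yp1 at 913.5 TPM and the accessory gland gene Mst57Db at 3230 TPM. The ratio of males to females is not known, so that the share of X transcripts from either sex was not separated.

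Protein-coding genes of the X were about as abundant as those of the autosomes. Of 2174 coding genes on the X, 1911 were at or above 1 TPM (87.9%), against 7499 of 8766 on the 3 autosomal arms (85.5%) and 86.0% over all 4 arms. The share was 87.1% on 2L, 83.7% on 3L and 85.7% on 3R. The X thus lay above each autosomal arm, but was closer to 2L than 2L was to 3L.

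Among coding genes at or above 1 TPM, the median was 27.8 TPM on the X and 29.1 TPM on the autosomal arms, a difference of -0.07 on the log2 scale. The median was 27.8 TPM on 2L, 29.7 TPM on 3L and 29.8 TPM on 3R. The X was therefore within the range of the arms, at its lower end. The arms themselves differed by up to 0.10 on the log2 scale. Over all coding genes, those below 1 TPM included, the median was 22.3 TPM on the X, and between 21.1 and 22.5 TPM on the arms.

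Fewer coding genes of the X than of the pooled autosomal arms were at or above 100 TPM, and fewer were without reads. At or above 100 TPM there were 236 X genes (10.9%), against 1069 autosomal ones (12.2%) and 11.9% over all 4 arms. The arms ranged from 11.4% on 3L to 13.1% on 2L, so that the X was below each of them. Outside all the gene lists described further on, the share was 9.28% on the X and between 9.81% and 11.5% on the arms. No reads were found for 61 coding genes of the X (2.81%), against 372 on the autosomal arms (4.24%). By this measure the X was level with 2L, where the share was 2.79%. The classes from 10 to 30 TPM and from 30 to 100 TPM held 23.5% and 31.3% of the X genes, more than on any of the 3 arms. The SD of log2 TPM over coding genes at or above 1 TPM was 2.03 on the X, and between 2.08 and 2.13 on the arms. The ratio of the upper to the lower quartile was 6.53 on the X and between 6.08 and 7.51 on the arms, so that the narrower spread of the X was seen in the SD and not in the quartiles. At or above 1000 TPM the order was the other way, with 22 X genes (1.01%) against 79 autosomal ones (0.901%). The X was inside the range of 0.844% to 1.02% on the single arms, with 0.923% over all 4 arms.

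**Figure D1:**
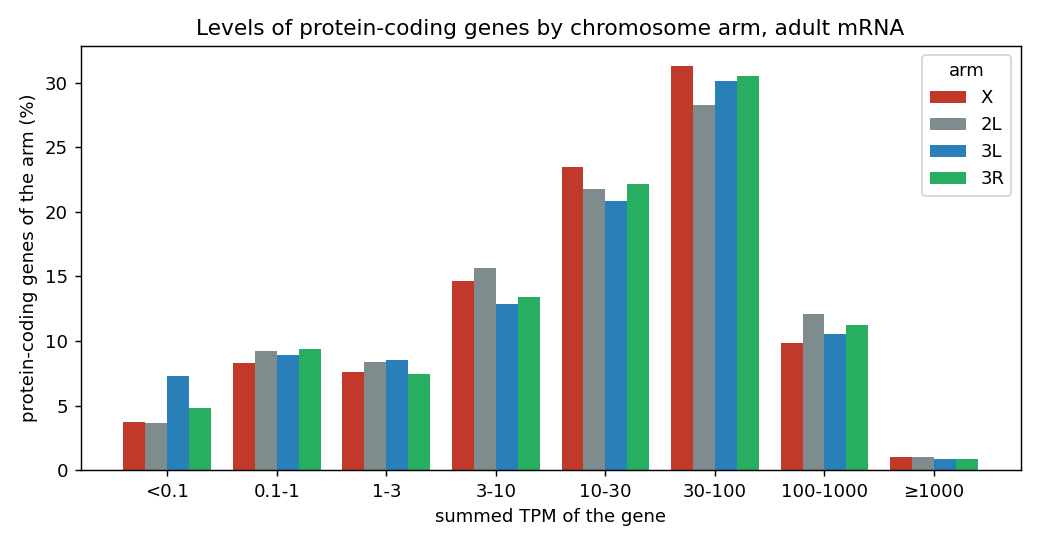
Share of the protein-coding genes of each chromosome arm (y axis, %) in 8 classes of summed TPM (x axis), with bars for X, 2L, 3L and 3R. The X bar is the highest from 10 to 30 TPM (23.5%) and from 30 to 100 TPM (31.3%), and the lowest from 100 to 1000 TPM (9.84%).

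When genes of every class were counted, 2108 X genes were at or above 1 TPM (78.9%), against 8468 autosomal genes (75.99%) and 76.6% over all 4 arms. The difference of 2.93 percentage points was smaller than the 3.03 points between the lowest and the highest autosomal arm. Long noncoding RNA (lncRNA) genes, most of which are low, made up 8.65% of the X genes and between 9.88% and 14.8% of the genes of the arms. The X thus listed fewer genes of a class that is mostly low. The median over genes of every class at or above 1 TPM was 24.4 TPM on the X and 24.1 TPM on the autosomal arms, a fold of 1.01.

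The X contributed to the whole in near proportion to its number of genes. It held 19.3% of the genes of the 4 arms and 19.9% of their TPM. Its share of the reads was larger, at 21.6% (95% exact binomial interval 21.5 to 21.6%, for counting error only). TPM is corrected for transcript length and reads are not. The coding genes of the X spanned a median of 2557 bp from start to end, introns included, against 2077 bp on the autosomal arms. Transcript lengths were not compared, and the cause of the larger share of reads was not tested. Of the X TPM of coding genes, 50% came from 94 genes, or 4.32% of them, against 4.45% to 4.59% of the coding genes on the arms.

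Genes of the X were listed with more transcripts. The mean was 2.47 per coding gene on the X, and between 2.11 and 2.15 on the arms. A lone transcript was listed for 43.4% of the X coding genes, against 46.3% on 2L, 51.0% on 3L and 54.0% on 3R. Genes with more listed transcripts were more abundant on the X, with a median of 12.6 TPM for 1 transcript, 25.7 TPM for 2, 35.2 TPM for 3 to 4 and 42.5 TPM for 5 or more. The autosomal medians in the same classes were 13.7, 24.8, 34.6 and 47.5 TPM. Within these classes, the share of X genes at or above 1 TPM was 79.4%, 90.9%, 96.7% and 99.2%. It was 77.8%, 90.7%, 95.7% and 98.5% on the autosomal arms. In this share, X and autosomal genes were nearer to each other within each class than when all coding genes were pooled. As plain differences in TPM, the medians were further apart in each class than over all coding genes, at 22.3 TPM on the X and 21.8 TPM on the autosomal arms. As ratios, those for 3 to 4 transcripts were closer than over all coding genes. The X median was the lower for 1 and for 5 or more transcripts, and the higher in the other classes.

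The most abundant X gene was dhd (deadhead), a thioredoxin of the female germline that acts on sperm chromatin after fertilization. It reached 5775 TPM from 75392 reads (X, 5312171 to 5313125), and was the most abundant of all 13815 genes of the 4 arms. Its neighbour TrxT, the thioredoxin of the testis (X, 5310581 to 5311888), was listed at 221.3 TPM from 4141 reads. These adjoining genes thus stood at ranks 1 and 90 of the X. Cyp4g1, a cytochrome P450 that makes cuticular hydrocarbons in the oenocytes, was next to dhd at 3006 TPM. It held 115940 of the 121523 reads of the 14 P450 genes of the X, whose median was 5.18 TPM.

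Of the 15 most abundant X genes, 10 were RpL or RpS genes of the cytosolic ribosome. They ranged from RpL37-1 at 2815 TPM, RpL35 at 2481 TPM and RpS19a at 2469 TPM to RpS15Aa at 1696 TPM, with RpL36, RpL7A, RpS10b, RpS6, RpL17 and RpS28b in between. Another protein of the small ribosomal subunit, sta, was at 1589 TPM. The other members of this group were dhd, Cyp4g1, whe at 2104.5 TPM and Act5C, a cytoplasmic actin of all cells, at 1639 TPM. Most of the top of the X list was thus the machinery of protein synthesis. Below them came sesB, the ADP/ATP carrier of mitochondria, at 1393 TPM and the glycolytic enzyme gene Gapdh2 at 1274 TPM. The cyclophilin gene Cyp1 was at 1246 TPM, and Prx2, a peroxiredoxin, at 1233 TPM.

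**Figure D2:**
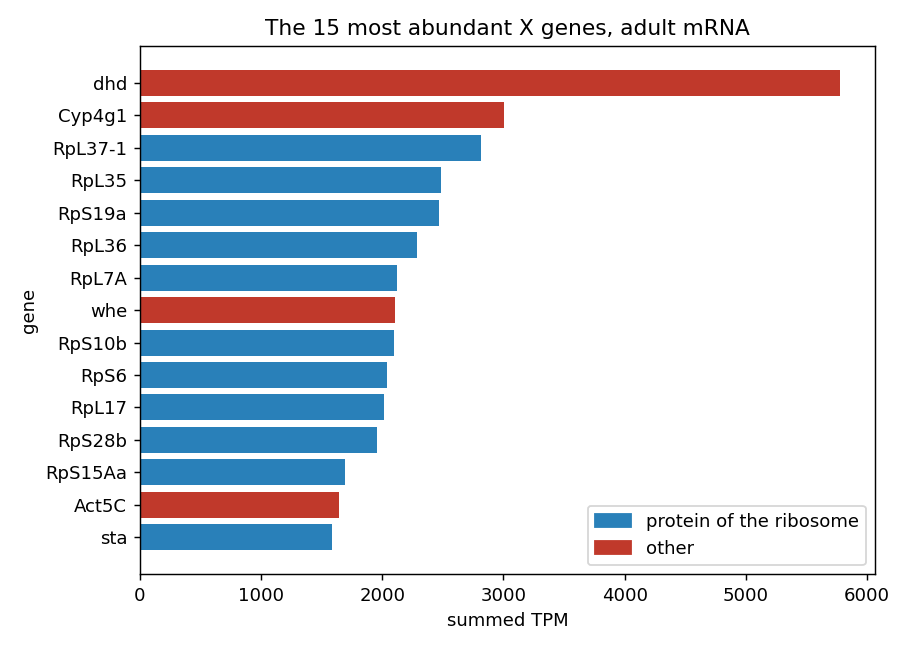
Summed TPM (x axis) of the 15 most abundant X genes (y axis), in 1 library. Blue bars are proteins of the ribosome and red bars are other genes, and dhd at 5775 TPM stands apart from Cyp4g1 at 3006 TPM.

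The top of each autosomal arm was of the same kind, without a gene at the level of dhd. On 2L all 5 most abundant genes encode ribosomal proteins, from RpL27A at 3223 TPM through RpS26, RpS27A and RpS13 to RpL13 at 2711 TPM. On 3L, RpL10 at 3012 TPM was followed by Met75Ca at 2932 TPM, CG18628 at 2653 TPM, RpL18 and RpS4. On 3R the accessory gland gene Mst57Db at 3230 TPM stood before the ribosomal protein genes RpS25 and RpS29. Male accessory gland genes were therefore among the leading genes of an autosomal arm and not among those of the X. The 10 most abundant coding genes held 19.3% of the coding TPM of the X, against 11.98% to 14.8% on the arms, and dhd alone held 4.10%.

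Some groups of genes have products that work in 1 complex, and their X and autosomal members can be set side by side. The 10 gene lists used here were chosen by symbol, and their members were not a random draw from the genome. Cytosolic ribosomal proteins had a median of 2029 TPM over 14 X genes (range 645.7 to 2815 TPM). It was 2097 TPM over 55 autosomal genes, which range from 2.94 TPM to RpL27A at 3223 TPM, RpS25 at 3218 TPM and RpS29 at 3130 TPM. All 14 X genes and 50 of the 55 autosomal ones were at or above 100 TPM. The list kept paralogues such as RpS28a at 2.94 TPM and RpS19b at 35.2 TPM, and left out sta of the X, at 1589 TPM. The members below 100 TPM were all autosomal, so that the closeness of these medians depends in part on the list. The medians without paralogues were not computed. The lowest X member was RpS14b at 645.7 TPM, beside its near-identical neighbour RpS14a at 1372 TPM. Reads of these copies may have been shared out between them, so that their separate values are uncertain.

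Nuclear genes of the respiratory chain had a median of 165.3 TPM over 13 X genes and of 180.6 TPM over 55 autosomal ones. On the X, COX6B of complex IV was at 559.6 TPM, ATPsyndelta of the ATP synthase at 504.5 TPM and ND-MNLL of complex I at 284.6 TPM. The most abundant autosomal members were ATPsynC at 887.5 TPM, COX4 at 784.8 TPM and COX5A at 755.9 TPM. The list also holds paralogues of the subunits, whose symbols close with an L, and they were unevenly spread. There were 17 on the autosomal arms, between 7.48 TPM for ATPsynbetaL and 111.0 TPM for COX6CL, and 1 on the X, SdhBL at 63.0 TPM. Without them, a choice made after the values had been seen, the median was 180.3 TPM over 12 X genes and 341.0 TPM over 38 autosomal genes.

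The members that remained were also of different complexes. Complex I, taken as symbols that begin with ND-, gave 9 of the 12 X genes and 18 of the 38 autosomal ones. This choice leaves out NdufA3 and NdufV3 of the X, at 161.7 and 134.5 TPM, and other symbols were not searched. Within the ND- genes, the median was 161.0 TPM on the X (range 136.9 to 284.6 TPM). On the autosomal arms the median was 178.3 TPM (range 25.2 to 677.9 TPM). For the other complexes, it was 504.5 TPM over 3 X genes and 488.5 TPM over 20 autosomal genes. The X and autosomal medians were thus further apart for the pooled subunits than within either of these divisions. The 11 X genes of mitochondrial ribosomal proteins had a median of 76.4 TPM, and the medians were between 55.6 and 66.9 TPM on the arms. For mitochondrial ribosomal proteins the X median was thus above that of each arm, and the ranges overlapped.

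Members of the list for glycolysis and the pentose phosphate pathway were less alike. The 5 X members had a median of 91.0 TPM, against 437.1 TPM for 13 autosomal members. The autosomal ones include Idh, Mdh1 and Men, at 488.9, 443.1 and 221.0 TPM, which belong to neither pathway. Gapdh2 was at 1274 TPM, while the hexokinase gene Hex-A was at 113.1 TPM. The 3 X genes of the pentose phosphate pathway, Pgd, Pgls and Zw (glucose-6-phosphate dehydrogenase), were at 91.0, 45.6 and 35.2 TPM. On the autosomes, Eno, Tpi and PyK of glycolysis were at 676.4, 609.1 and 585.2 TPM. The X members were thus mostly of the pentose phosphate branch, and the ranges overlapped.

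Of the muscle list, 5 genes lay on the X, with a median of 187.9 TPM, against 152.7 TPM for 19 on the autosomal arms. The troponin genes up (troponin T) and wupA (troponin I) were at 320.6 and 206.0 TPM. Mlc-c, a cytoplasmic myosin light chain that is not limited to muscle, was at 187.9 TPM and gave the X median. Autosomal Mlc2, Mf and Zasp66 were at 576.2, 570.0 and 523.8 TPM. Among neuronal genes, the 20 X members had a median of 10.7 TPM and the 37 autosomal ones of 15.7 TPM. The most abundant X members were the kinase gene sgg at 102.2 TPM, the dynamin gene shi at 85.7 TPM and comt (the fusion factor NSF) at 30.3 TPM, of which the first pair also act outside neurons. The sodium channel gene para was at 7.85 TPM and elav, a marker of neurons, at 4.82 TPM. The top autosomal members were Csp at 176.4 TPM, fax at 103.8 TPM and cpx at 99.9 TPM. All 20 X members and 36 of the 37 autosomal ones were at or above 1 TPM.

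The 15 X genes of the eye list reached at most 47.0 TPM, for norpA, the phospholipase C of phototransduction. They included rdgB at 44.0 TPM and the pigment granule gene rb at 43.6 TPM, while the pigment transporter gene w (white) was at 8.30 TPM. On the autosomes, ninaE (the main rhodopsin), Arr2 and Arr1 (arrestins) were at 1671, 503.0 and 321.8 TPM. The medians were nevertheless close, at 24.8 TPM for the X and 18.3 TPM for 31 autosomal members. The most abundant eye genes of the list were thus autosomal. The lowest member of all was on the X, inaF-A at 0.03 TPM.

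Genes limited to a sex were spread unevenly between the X and the autosomes. Of the accessory gland list, no member was on the X and 45 were on the 3 arms, whereas the X holds 19.9% of the coding genes of the 4 arms. They were led by Mst57Db at 3230 TPM, Sfp87B at 1495 TPM and Acp95EF at 1329 TPM. Of the testis list, 3 members were on the X and 55 on the arms. The X members were TrxT at 221.3 TPM, hydra at 104.3 TPM and Sdic1, a member of a repeated set of genes of the sperm dynein, at 24.97 TPM. The most abundant autosomal testis genes were Mst87F at 933.9 TPM, Mst84Db at 573.8 TPM and S-Lap1 at 558.2 TPM. These counts rest on which genes the lists hold, and position was fixed by the genome and not by the library.

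The egg and yolk list, in contrast, had 25 of 60 members on the X (41.7%). All 25 were at or above 1 TPM, as were 34 of the 35 autosomal members and 87.9% of all X coding genes. Several of its X genes were named for X-linked female sterility, so that the list leans towards the X. After dhd, the yolk protein genes Yp1, Yp2 and Yp3 were at 913.5, 652.3 and 542.9 TPM, and yl, the yolk receptor of the oocyte, at 340.7 TPM. The maternal genes wisp, swa and fs(1)Ya, with roles in egg activation, bicoid RNA localization and the nuclear envelope of the early embryo, were at 262.5, 258.6 and 214.7 TPM. The germline gene otu was at 192.4 TPM and the kinase gene png at 99.4 TPM. These germline and yolk genes were therefore the abundant part of the X list.

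Genes of the eggshell on the X were lower. The vitelline and eggshell genes dec, Fcp3C and Vml were at 89.5, 65.2 and 32.9 TPM. The chorion genes Cp36, Cp7Fc, Cp38, Cp7Fb and Cp7Fa, which lie together between 8470888 and 8483311, were at 7.64, 6.22, 3.16, 2.08 and 1.81 TPM. Femcoat, another eggshell gene, was at 3.66 TPM. Among the autosomal members, the chorion genes Cp18, Cp19, Cp16 and Cp15 of 3L were at 196.1, 96.5, 68.2 and 15.6 TPM, and each was above the 5 X chorion genes. The remaining X members ran from mud at 58.8 TPM, ovo at 56.6 TPM, fs(1)K10 at 35.9 TPM and fs(1)N at 35.7 TPM to fs(1)M3 at 17.3 TPM and gd at 6.16 TPM. The most abundant autosomal members were me31B, which also acts outside the egg, at 1736 TPM, Vm34Ca at 1361 TPM and Vm26Aa at 874.9 TPM. Over the list, the median was 58.8 TPM on the X and 83.2 TPM on the autosomal arms.

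**Figure D3:**
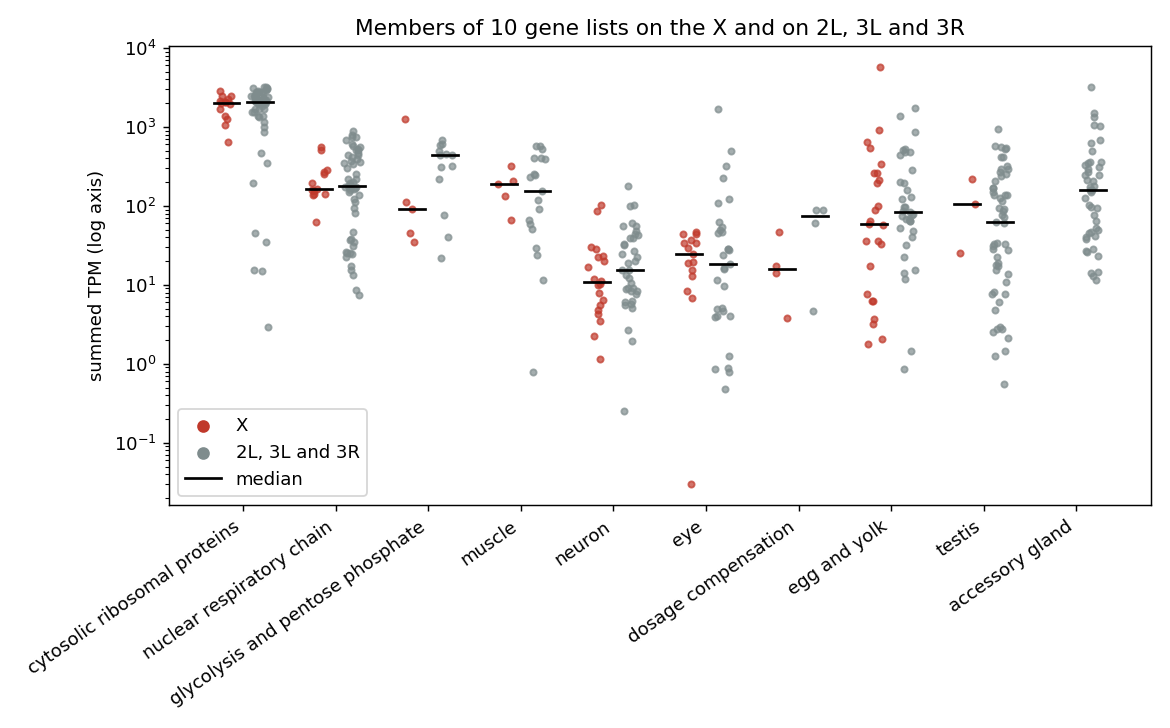
Summed TPM (y axis, log axis) of the members of 10 gene lists (x axis), red for the X and grey for 2L, 3L and 3R, each point a gene and each black line a median. The medians are close for ribosomal proteins (2029 and 2097 TPM) and the respiratory chain (165.3 and 180.6 TPM), both with their paralogues. No accessory gland gene lies on the X.

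The noncoding RNAs of dosage compensation were below the X coding median of 22.3 TPM, but above the X lncRNA median of 0.56 TPM. The noncoding RNA roX2 was at 14.3 TPM from 192 reads, and roX1 at 3.80 TPM from 255 reads. The acetyltransferase gene mof was at 17.2 TPM, and Sxl, the switch gene of female development that blocks dosage compensation, at 46.9 TPM. These 4 X genes had a median of 15.7 TPM. Among the autosomal partners, msl-1, Clamp and msl-3 were at 89.01, 88.5 and 61.4 TPM, and msl-2, whose protein is made in males, was at 4.72 TPM.

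A few lncRNA genes of the X were far more abundant than most of their class. Of 231 lncRNA genes on the X, 9 were at or above 100 TPM (3.90%), against 4 of 1368 on the autosomal arms (0.292%) and 0.813% over all 4 arms. The range of the arms was 0.194% to 0.457%, so that the X was above each of them. These 9 genes lay between 211.4 and 425.2 TPM and between 1183 and 5876 reads, and held 2628 of the 3404 TPM of all X lncRNA genes. The arms together had 4335 TPM in lncRNA genes. At or above 10 TPM there were 26 X lncRNA genes (11.3%), these 9 included, against 73 on the autosomal arms (5.34%). The share at 10 TPM was 4.11% to 6.85% on the single arms and 6.19% over all 4 arms. At 1 TPM the X did not stand out, with 39.0% of its lncRNA genes at or above it. That share was 42.8% on the autosomal arms and 42.3% over all 4 arms.

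Of the 9 genes, 6 lay within a stretch of the X between 11917806 and 12412181. CR32661, CR43157 and CR32660, at 251.4, 211.4 and 318.9 TPM, followed each other on the minus strand. CR32657 and CR32658 were on the plus strand at 332.0 and 425.2 TPM, and CR32652 on the minus strand at 295.5 TPM. CR32690 (294.4 TPM), CR34335 (277.9 TPM) and CR42767 (220.9 TPM) lay elsewhere. All 9 were short, with spans of 361 to 1164 bp. No other gene overlapped 4 of them. The remainder overlapped genes at up to 29.1 TPM, such as Ten-a at 3.99 TPM for CR32657 and CR32658, and Sclp at 29.1 TPM for CR32660. These 9 genes were noticed after their values had been seen. On the arms, CR42862 of 3L was at 563.7 TPM, and Hsromega, a long noncoding RNA of the heat shock response, was at 238.4 TPM.

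**Figure D4:**
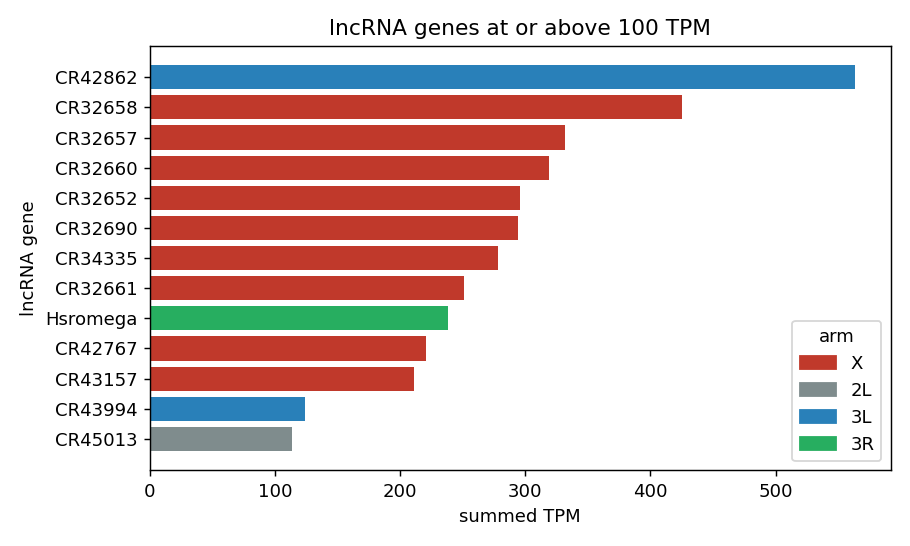
Summed TPM (x axis) of the 13 lncRNA genes at or above 100 TPM (y axis), coloured by chromosome arm. The 9 red bars are genes of the X, from 211.4 to 425.2 TPM, and 4 bars belong to the autosomal arms.

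Ribosomal RNA pseudogenes were another class with high values on the X, where the ribosomal RNA genes lie in a repeated array. Of the 14 copies, 11 were at or above 1 TPM, and the highest was 28SrRNA-Psi:CR40741 at 297.5 TPM from 6331 reads. No gene of this class was listed on the 3 arms. Their sequences resemble those of the repeated ribosomal RNA, so that reads of one may have been counted for the other and the values are uncertain. Together they made up 1455 of the 146318 TPM of the X. Of the snoRNA genes, 18 of 31 on the X were at or above 1 TPM (58.1%), against 45 of 133 on the arms. The share was 21.6% on 2L, 27.1% on 3L and 50% on 3R, and 38.4% over the X and these arms together. The X was thus above each arm, but nearer to 3R than 3R was to 3L. Of the microRNA genes, 7 of 55 on the X and 20 of 145 on the arms were at or above 1 TPM, with 13.5% over the X and the arms together.

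Along the X, the median level of coding genes varied from window to window. In the 23 windows of 1 Mb with at least 20 coding genes, the median TPM ran from 3.26 to 33.5. Over windows it had a median of 23.2 TPM and quartiles of 18.2 and 27.6 TPM. The median over windows was 23.4 TPM on 2L, 20.4 TPM on 3L and 22.6 TPM on 3R. A window median below 10 TPM was found for 1 of 23 windows on the X, for 2 of 23 on 2L, for none of 23 on 3L and for 3 of 28 on 3R. Low windows were thus not limited to the X. The highest X window, from 6000001 to 7000000, held 110 coding genes, of which 105 were at or above 1 TPM. It was led by RpL7A at 2125 TPM, RpL17 at 2015 TPM and the ubiquitin gene Ubi-p5E at 594.9 TPM. The largest sum, 12973 TPM, belonged to the window from 5000001 to 6000000, which holds dhd, RpL35 and Act5C.

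The lowest X window ran from 14000001 to 15000000, with a median of 3.26 TPM over 87 coding genes, of which 28 were below 1 TPM. Of these 28, 13 were the 12 copies of Stellate, a repeated gene that is silenced in the male germline by small RNAs from the Y chromosome, and the related Ste12DOR. The 12 Stellate copies lay between 14046772 and 14061817, had 35 reads in all and ranged from 0.11 to 0.44 TPM. The copies are nearly identical, so that their reads cannot be assigned with certainty. Without them and Ste12DOR the window median was 4.83 TPM, and 59 of 74 genes were at or above 1 TPM (79.7%). By its median the window remained the lowest of the X, while its share at or above 1 TPM was then above the 76.4% of the window from 3000001 to 4000000. It also held the netrin genes NetA and NetB, guidance cues of axons, at 1.76 and 2.16 TPM, and Eo, the ecdysone oxidase, at 0.17 TPM. Abundant genes were present as well, with the yolk receptor gene yl at 340.7 TPM, CG11674 at 210.8 TPM and Ag5r at 149.1 TPM.

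**Figure D5:**
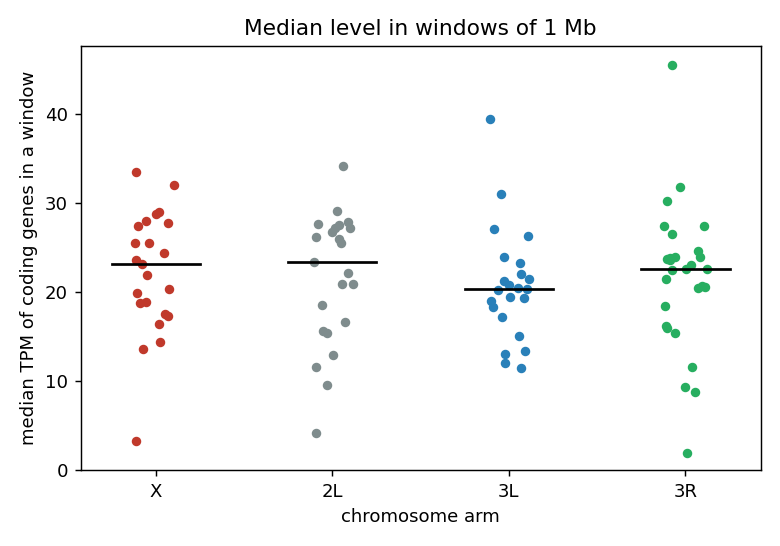
Median TPM of the coding genes in windows of 1 Mb (y axis) for each chromosome arm (x axis), with a point for each window of at least 20 coding genes and a black line for the median over windows. The X points lie between 3.26 and 33.5 TPM, within the range of the 3R points, 1.97 to 45.5 TPM.

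Families of sensory receptors were among the lowest of the X, as on the autosomes. None of 8 odorant receptor genes of the X reached 1 TPM, and the highest, Or19b, was at 0.96 TPM. Of 6 gustatory receptor genes only Gr8a did so, at 1.19 TPM, and of 11 ionotropic receptor genes only Ir7c, at 5.56 TPM. On 2L, 3L and 3R, 0 of 10, 2 of 11 and 0 of 16 odorant receptor genes reached 1 TPM. For gustatory receptors the counts were 3 of 17, 1 of 11 and 0 of 13. For ionotropic receptors they were 1 of 4, 3 of 13 and 0 of 14. Over all coding genes of the 4 arms the share was 86.0%. Odorant-binding proteins, which are secreted around the receptors, were higher, with all 6 X genes at or above 6.83 TPM and Obp19d at 311.5 TPM. The betaNACtes genes, a set of similar copies of the X named for the testis, ranged from 0.76 TPM to betaNACtes4 at 3.93 TPM.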

How the data were processed

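Per the labels, 1 mRNA library was made from total RNA of adult fruitflies harvested with Trizol, with an Illumina library protocol that is not detailed. The submitters' processing notes list CASAVA and HISAT2 without their roles. The counter, the build and the annotation behind the table were not given in the sources used. Whole numbers per transcript, as deposited by the authors (26179479 reads over 34736 transcripts), were taken to be rounded estimated counts, since transcripts of a gene share sequence. TPM values, calculated by the authors per transcript, were added up for each gene. The deposited FPKM was proportional to TPM, with a ratio of 1.588 to 1.590, and was used in an alternative. The small RNA library was not used here. Strandedness is not stated, so that reads of overlapping genes may not be separated.

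Symbols were found for 17560 genes (99.2%). Gene classes came from the RefSeq gene table of Release 6 and were found for 13778 of 13815 genes. Starts and ends equalled those of that table for 17395 of 17522 genes (99.3%), and positions are those of the deposited table. Of the X genes, 21 had no symbol and are not named. No sequence table was used, so the planned promoter motifs were not searched.

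Members and lists were chosen with earlier results of these data known. Genes were named by a fixed rule: the 15 most abundant X genes, the 5 most abundant of each arm, the 3 most abundant X and autosomal members of each list and of each X window singled out, and every X member of the testis, accessory gland, egg and dosage compensation lists. A gene that this rule selects is not reported here. Other named genes were picked after their values had been seen. Thresholds were 1 and 100 TPM, the pseudocount was 1 and windows were 1 Mb. With 1 library no test was possible. Python 3.11.15, pandas 2.3.3, numpy 2.4.6 and scipy 1.17.1 were used, and the calculation was tested on simulated data.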

Additional observations from a re-analysis of the deposited data

How the results depend on the processing

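The share of X genes at or above 1 TPM was 78.9%, and the autosomal share 75.99%. These shares were 75.2% and 71.4% at 1 FPKM, 76.2% and 72.1% at 1 RPM, 83.8% and 81.9% at 0.5 TPM, and 63.7% and 59.4% at 5 TPM. They were 87.9% and 85.5% for protein-coding genes, 87.4% and 85.6% for genes of at least 1 kb, and 87.7% and 85.3% for protein-coding genes without the testis, accessory gland and egg lists, an alternative chosen after seeing the data. Among genes with at least 10 reads they were 93.97% and 94.03%, so that the X was no longer above the autosomes, whereas in the other settings it was. The autosomal share was 74.8% on the plus strand, 77.2% on the minus strand and 74.9% without 3R.

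The median difference of 0.02 on the log2 scale, which lies within the range of the arms, turned negative in 6 settings. It was -0.0022 with FPKM, -0.0097 at 5 TPM, -0.068 for protein-coding genes, -0.032 on the minus strand, -0.0088 without 2L and -0.055 for protein-coding genes without the testis, accessory gland and egg lists. With RPM values, which are not corrected for length, it was 0.34. The mean of log2(TPM + 1) over all genes was 3.67 on the X and 3.50 on the autosomal arms, a difference of 0.17. The X was above each arm (3.41 to 3.61), but the difference was smaller than the 0.21 between the lowest and the highest arm. This mean difference kept its direction in all 17 settings, from 0.06 to 0.34. The cause of the changes was not tested.

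The X share of TPM was 19.9%. It was 21.6% with RPM, 19.7% with the most abundant transcript of each gene, 19.5% for protein-coding genes, 17.6% without the 10 most abundant X and 10 most abundant autosomal genes, 19.7% without the testis, accessory gland and egg lists, 20.9% for genes of at least 1 kb, 19.7% on the plus strand, 20.1% on the minus strand and 19.3% for protein-coding genes without the testis, accessory gland and egg lists. The X share of genes at or above 100 TPM was 18.9%, and 22.6% with RPM. The top 10 genes held 18.6% of the X TPM and 5.18% of the pooled autosomal TPM, so that leaving them out lowers the X share by construction. Leaving out an arm makes both shares larger by construction. The share of TPM was then 26.5% without 2L, 26.2% without 3L and 29.1% without 3R, and the share of genes 25.7%, 24.8% and 27.5%. No paired analysis was possible because there was 1 library. Leaving out a replicate was not possible either, and the planned promoter motifs were not searched. Depth limits values below 1 TPM, where few reads were counted.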

Other observations

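Of the antisense RNA genes of the X, 37 of 69 were at or above 1 TPM (53.6%), against 58.9% on 2L, 67.3% on 3L and 71.4% on 3R. Over all 4 arms the share was 64.2%. The X was nearer to 2L than 2L was to 3R. Of the pseudogenes other than those of ribosomal RNA, 30 of 53 on the X were at or above 1 TPM (56.6%), against 50.9% over all 4 arms. None of the 53 was at or above 100 TPM, against 1 of 175 over all 4 arms. No tRNA gene of the X reached 1 TPM, of 24, and 4 of 168 did so on the arms, with 2.08% over all 4 arms. Without a statement on strand, the values of antisense genes cannot be separated from those of the genes they overlap.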
